A study of Homo sapiens with 6 samples.

Results

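hsa-miR-210-3p is the 3′ arm of miR-210, a microRNA (miRNA) best known for its induction when oxygen is scarce. Its probe was found by name, and the miRNA was chosen for description with earlier results of these data known. It is 1 of the 798 human miRNA probes counted in every library and 1 of the 152 that lay far enough above background to be tested. The data are 6 samples of total RNA from A549, an established line of human lung adenocarcinoma cells, profiled on the nCounter human v3 miRNA panel, which counts barcoded probes without amplification. In siAPE1 (3 libraries) the cells had received an siRNA against APE1, and in siSCR (3 libraries) a scramble control siRNA. Both were given at 100 pmol with a lipid reagent, so all 6 samples share the transfection, and RNA was taken after 72 h. No low-oxygen treatment is named for any sample. The paper calls the replicates biological, while the labels do not say that they came from separate cultures, so p-values reflect no more than how far these 6 samples spread. A transient siRNA leaves remaining protein, and neither APEX1 mRNA nor any HIF mRNA is on the panel, so neither the depletion nor HIF activity was measured here. For the silencing of APE1 protein in A549 the paper refers to a Western blot, which was not used here.

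In hypoxic cells the HIF-1 transcription factor binds the hypoxia response element upstream of the host gene MIR210HG, and miR-210 is cut from that transcript. The mature 3′ arm represses, among other mRNAs, those of the iron-sulfur scaffold ISCU and of ephrin-A3, and it is widely used as a hypoxia marker in tumors. APE1, also called Ref-1, is an endonuclease of base excision repair that also acts as a redox coactivator of several transcription factors, HIF-1 among them. The comparison of siAPE1 with siSCR asks how the level of each miRNA differs after an siRNA against APE1. All siAPE1 samples received the same siRNA sequence, so an effect of that sequence cannot be told apart from loss of APE1.

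The sequences of both arms are shown because the panel counts each of them with its own probe, with the seed (bases 2 to 8) in capitals. They are RefSeq's on build GRCh38.p14, on the minus strand of chromosome 11.
hsa-miR-210-3p: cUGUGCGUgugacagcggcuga
hsa-miR-210-5p: aGCCCCUGcccaccgcacacug
The 3′ arm lies at chr11:568112-568133 and the 5′ arm at chr11:568150-568171. Both fall in the gene MIR210, a hairpin of 110 bases at chr11:568089-568198, which lies inside the non-coding host gene MIR210HG (chr11:565657-568457). The reference table gives the bounds of the host gene and not its exons. The hairpin is shown because it places both arms, which are in capitals.
MIR210 hairpin: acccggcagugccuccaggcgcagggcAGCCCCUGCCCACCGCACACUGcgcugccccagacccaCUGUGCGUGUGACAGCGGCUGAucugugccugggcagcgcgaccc
RNAfold folded this hairpin with a minimum free energy of −59.5 kcal/mol. In that predicted structure 17 of the 22 bases of the 3′ arm were paired, 16 of them with the 5′ arm, and 6 of the 7 seed bases were among the paired ones. The 3′ arm has a GC content of 63.6%, against a median of 45.5% over the tested probes with a sequence, and 5 tested probes including its own were at or above that value.

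No other miRNA on the panel was found with the seed of miR-210-3p, so its count has no family partner there. That search covered the 730 of 827 miRNAs named on the panel whose mature sequence could be matched by name. Of the 2370 human mature miRNA names in RefSeq, none other had the same bases 2 to 8. One, hsa-miR-147b-3p, shared bases 2 to 7. The panel probe hsa-miR-147b names no arm and was not matched. Neither siRNA carried the seed of either arm, and the longest run of bases that an siRNA strand shared with an arm was 4.

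The promoter stretch around a match to the core hypoxia response motif is shown because HIF-1 is known to act on this gene through such an element. Whether the match shown is the one that HIF-1 binds was not tested. The core letters ACGTG were searched on both strands of the 300 bases around the start of MIR210HG, and 1 match was found, 170 bases before the start. It is in capitals in the stretch at chr11:568603-568647, minus strand, GRCh38.p14.
MIR210HG promoter window: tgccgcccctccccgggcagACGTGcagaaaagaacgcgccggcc
The same letters occur in 21.4% of 35116 RefSeq promoters of this length, so a match by itself is common and is given as a description of the sequence.

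In the raw data, miR-210-3p was a low-count miRNA in all libraries and had higher counts in siAPE1. Its raw counts were 82, 86 and 65 in siAPE1 replicates 1 to 3, against 54, 54 and 42 in siSCR. The lowest siAPE1 library lay above the highest siSCR library, so the groups did not overlap even before any scaling. The siAPE1 libraries were the smaller ones, with 312152 to 331524 total counts, against 370087 to 488407 in siSCR. Their negative controls were not lower, with a raw mean of 29.0 ± 2.01 counts, against 26.6 ± 2.41 in siSCR (SD, n = 3 each). The 95% Poisson intervals of the raw counts, which cover counting error only, reached from 50.2 to 106 over the siAPE1 libraries and from 30.3 to 70.5 over the siSCR libraries. Intervals of single libraries of opposite groups therefore overlapped in part.

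**Figure D1:**
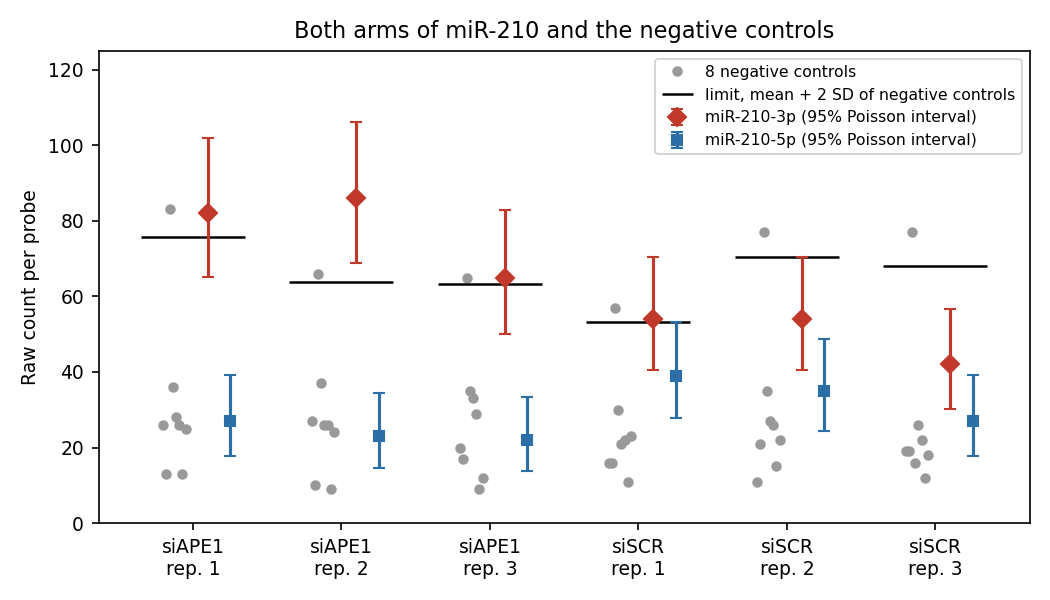
Raw counts (y axis) of miR-210-3p (red), miR-210-5p (blue) and the 8 negative controls (grey) in each library (x axis); error bars are 95% Poisson intervals and the black line is the background limit. The miR-210-3p counts of 65 to 86 in siAPE1 lie above those of 42 to 54 in siSCR, next to 1 bright negative control of 57 to 83 counts, while miR-210-5p stays at 22 to 39 counts.

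The level of miR-210-3p stood close to the background of the assay. The background limit of a library was the mean plus 2 SD of its 8 negative controls, which are probes with no target. This limit was 75.8, 63.9 and 63.3 counts in siAPE1 replicates 1 to 3, and 53.1, 70.6 and 68.0 counts in siSCR. miR-210-3p thus lay above the limit in all 3 siAPE1 libraries and in 1 siSCR library, replicate 1, by less than 1 count there. It entered the test through the group in which it was higher.

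The limit was set largely by 1 control, NEG_C, which had the highest count of the 8 negative controls in every library. NEG_C had 83, 66 and 65 counts in siAPE1 and 57, 77 and 77 in siSCR, and was at or above miR-210-3p in 5 of the 6 libraries. The other 7 negative controls were below miR-210-3p in all 6 libraries, with a highest value of 37 counts in siAPE1 and 35 in siSCR. Without the highest negative control the limit fell to between 40.4 and 42.7 counts in siAPE1 and between 27.7 and 38.3 counts in siSCR, and miR-210-3p was above it in all 6. With a limit of the mean plus 3 SD it was above in 1 library, siAPE1 replicate 2. The siSCR level can therefore be read as present or as within background, depending on how 1 control is treated.

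The same counts were read in 4 ways, set side by side here. The scaled count is the raw count divided by a library factor from the positive controls and the 5 housekeeping mRNAs. Scaled miR-210-3p was 85.6, 90.1 and 79.5 in siAPE1 replicates 1 to 3, against 47.9, 40.3 and 47.5 in siSCR. The groups were well apart, and their means were 85.1 ± 5.30 in siAPE1 and 45.2 ± 4.29 in siSCR (SD, n = 3 each), a ratio of 1.88.

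After subtraction of the negative-control mean, the scaled count was 53.0, 60.6 and 45.9 in siAPE1, against 26.1, 18.5 and 18.0 in siSCR. This readout gave the largest ratio of the 4, with means of 53.2 ± 7.37 in siAPE1 and 20.9 ± 4.59 in siSCR (SD, n = 3 each) and a ratio of 2.55. What remained after subtraction was 57.7% to 67.3% of the raw count in siAPE1 and 37.8% to 54.6% in siSCR, so background made up much of the signal, most of all in siSCR.

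As a ratio to the negative-control mean of its own library, miR-210-3p was at 2.62, 3.06 and 2.36 in siAPE1, against 2.20, 1.85 and 1.61 in siSCR. Here the groups came closest, the lowest siAPE1 library lying just above the highest siSCR library, with a ratio of means of 1.42. Per 100000 miRNA counts, it stood at 42.1, 40.8 and 33.0 in siAPE1, against 20.1, 16.3 and 16.3 in siSCR, a ratio of 2.19. In each of the 4 readouts all siAPE1 libraries exceeded all siSCR libraries. An exact two-sided permutation test gave p = 0.1 for each, which is the smallest p that 3 libraries against 3 can give and cannot pass 0.05 (0.1 after Benjamini-Hochberg adjustment over the 4).

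**Figure D2:**
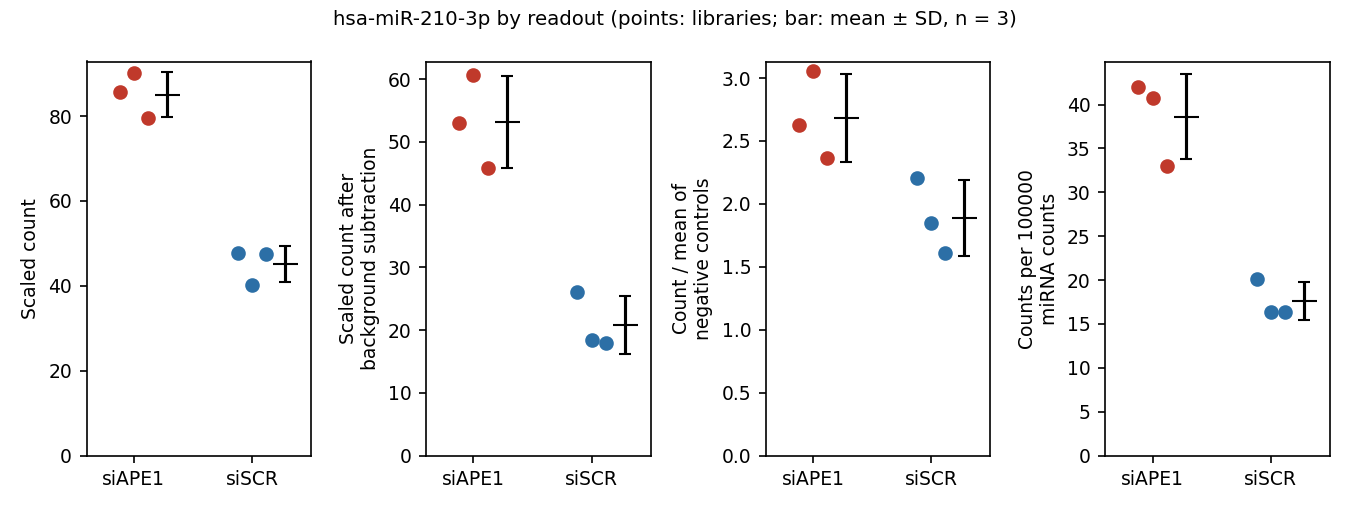
Level of miR-210-3p in each library (points) of siAPE1 (left) and siSCR (right) under 4 readouts (y axes), with the mean ± SD of 3 libraries beside them. The groups do not overlap in any panel, and the ratio of means runs from 1.42 against the negative controls to 2.55 after background subtraction.

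Complete separation of this kind was also counted over the tested miRNAs. Because miR-210-3p entered that set through its siAPE1 libraries, its place within the set is a description and not further support. In scaled counts, all 3 siAPE1 libraries lay above all 3 siSCR libraries for 11 of 152 tested miRNAs (7.24%), and in raw counts for 5 (3.29%), miR-210-3p being among both. Probes with no target could separate too. The negative controls NEG_A, NEG_D and NEG_F did so in scaled counts, while the other negative controls did not. In raw counts only NEG_A did, with 26, 27 and 20 in siAPE1, against 16, 11 and 19 in siSCR.

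The fit across all tested miRNAs also placed miR-210-3p among those that rose, within a set that it had entered through its siAPE1 libraries. With no filter on low counts, 78 of 798 probes were called higher in siAPE1. In that fit the log2 fold change of miR-210-3p was 0.92 as well (edgeR adjusted p = 2.71e-05). By edgeR's quasi-likelihood test its log2 fold change was 0.92 ± 0.18 (SE) in siAPE1 over siSCR, with a 95% interval of 0.58 to 1.26 and an adjusted p of 1.29e-06 (Benjamini-Hochberg over 152). The fit assumes a count model with an estimate of spread shared across probes, so its p is not held at 0.1 as that of the exact test is. At an adjusted p under 0.1, 15 of 152 miRNAs were called higher in siAPE1 (9.87%) and 77 lower (50.7%), and the log2 fold changes of all tested miRNAs had a median of −0.34. Relative to that median, miR-210-3p was 1.26 higher on the log2 scale.

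Among increases, 2 tested miRNAs had a larger fitted log2 fold change. One was miR-1246, which is listed below among those of like pattern. The other was miR-579-3p, chosen here after its values were seen, with a log2 fold change of 1.14 ± 0.98 (SE) that did not pass the test (edgeR adjusted p = 0.381).

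**Figure D3:**
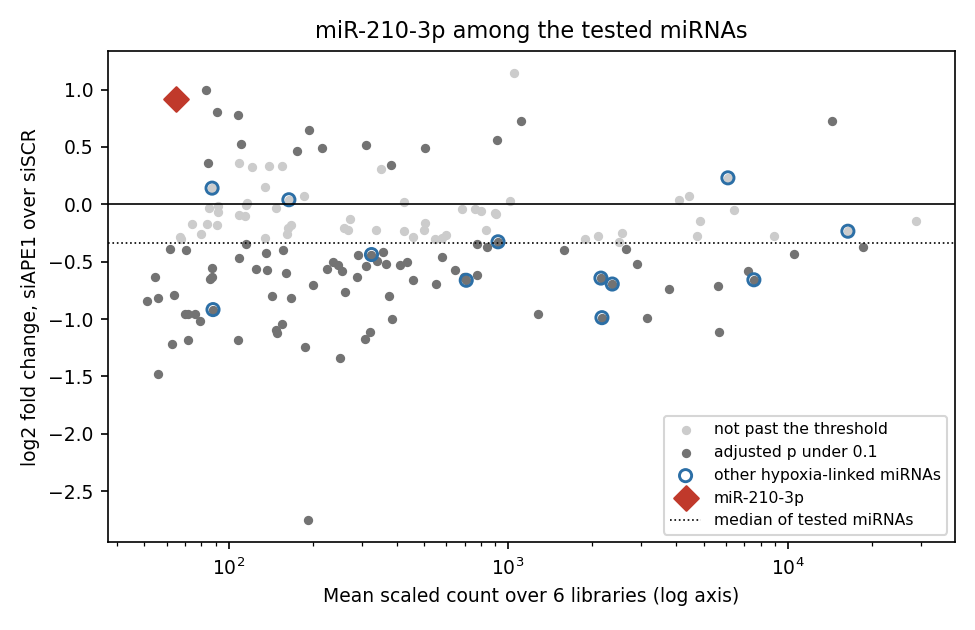
The log2 fold change in siAPE1 over siSCR (y axis) of the 152 tested miRNAs against their mean scaled count (x axis, log scale), with miR-210-3p as a red diamond and the other hypoxia-linked miRNAs circled in blue. miR-210-3p sits at 0.92 at the low end of the counts, while the 12 circled miRNAs have a median of −0.54 and the dotted line marks the median of all at −0.34.

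The scaling set the size of the change but not its direction. With the positive controls alone the log2 fold change was 0.51 (edgeR adjusted p = 0.0143), and 6 of 152 miRNAs (3.95%) were called higher, miR-210-3p still among them. With TMM, which centers the miRNAs on themselves, it was 1.28 (edgeR adjusted p = 1.75e-05), and 47 of 152 (30.9%) were called higher against 46 lower. A model in which background adds to the counts gave 1.34 (likelihood ratio test, adjusted p = 0.00079).

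**Figure D4:**
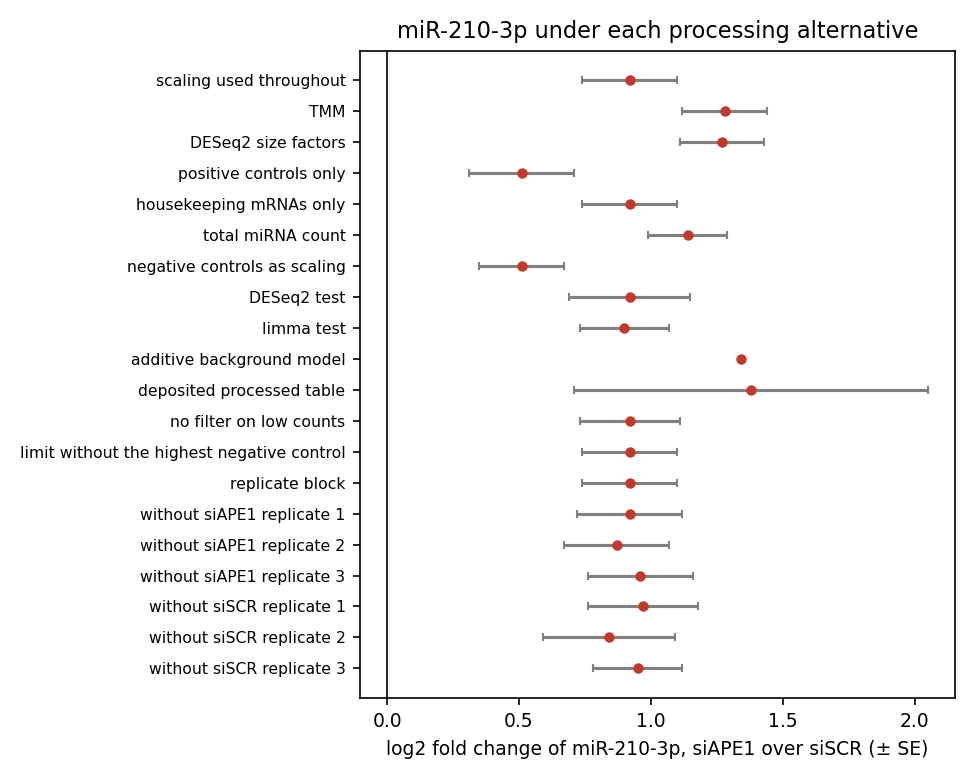
The log2 fold change of miR-210-3p in siAPE1 over siSCR (x axis) under the scaling used throughout and 19 alternatives (y axis). Error bars are 1 SE where one was computed (the additive background model has none drawn). All values lie above 0, between 0.51 and 1.38.

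Background itself was higher on the scaled axis in siAPE1, and its values stand here because miR-210-3p is so near to it. The mean of the 8 negative controls was 31.9 ± 2.18 scaled counts in siAPE1 and 24.4 ± 4.50 in siSCR (SD, n = 3 each), a log2 ratio of 0.39 (exact two-sided permutation test, p = 0.2). That difference of 7.55 scaled counts compares with one of 39.9 for miR-210-3p. Single negative controls had log2 ratios from −0.20 to 0.86, with a median of 0.38, against 0.91 for the miR-210-3p scaled means. The highest, 0.86 for NEG_A and 0.75 for NEG_D, came close to that value. The scaled groups of these controls did not overlap either. The 646 untested miRNA probes were above the limit in fewer than 3 libraries, and their median log2 ratio was 0.26. Of these, 13 (2.01%) had a ratio at or above that of miR-210-3p. A probe above the limit in all 3 siAPE1 libraries, as miR-210-3p was, cannot be among them. Their share therefore does not show how rare such a rise is near background.

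The other arm, hsa-miR-210-5p, which is usually the less abundant product of the hairpin, did not share the rise. Its raw counts were 27, 23 and 22 in siAPE1, against 39, 35 and 27 in siSCR. All 6 lay below the background limit, and in siAPE1 all 3 lay below even the mean of the negative controls. It was therefore not tested with the others. Its scaled means were 26.4 ± 2.10 in siAPE1 and 30.4 ± 4.23 in siSCR (SD, n = 3 each), with overlapping groups (exact two-sided permutation test, p = 0.3). With no filter on low counts, edgeR gave a log2 fold change of −0.19 ± 0.26 (SE; adjusted p = 0.650 over 798 probes). Per 100000 miRNA counts its groups overlapped as well. Against the negative controls they did not: the ratio to the negative-control mean was 0.80 to 0.864 in siAPE1 and 1.03 to 1.59 in siSCR (exact two-sided permutation test, p = 0.1, the smallest possible). After background subtraction its scaled count was −6.73 to −4.44 in siAPE1 and 0.990 to 12.8 in siSCR, with the same p in the exact test. All of these values come from counts below the background limit.

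The other hypoxia-linked miRNAs, a list of 17 probes for miRNAs that have been linked to hypoxia in various cells, were not called higher with the scaling used throughout. Of these, 12 were tested, 8 were lower in siAPE1, none was higher, and 4 did not pass (edgeR; 0 were higher at an unadjusted p under 0.05, and 0 with DESeq2 or limma). Their median log2 fold change was −0.54, against −0.34 over all tested miRNAs, and the 8 of 12 stand beside a background of 50.7% called lower. With TMM, 3 were called higher, beside 30.9% of all tested miRNAs, and 6 lower, beside 30.3%, with a median of −0.19.

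Members of the 2 paralogous clusters of miR-23, miR-27 and miR-24, which have been linked to survival of cells in low oxygen, differed from each other. miR-24-3p, made from both clusters, had scaled counts of 1271, 1373 and 1713 in siAPE1, against 2538, 2879 and 3224 in siSCR. The groups were apart, and its log2 fold change was −0.99 ± 0.18 (SE, edgeR adjusted p = 7.56e-07). miR-23b-3p (−0.64) and miR-27b-3p (−0.66), of the miR-23b cluster, were also called lower. miR-23a-3p and miR-27a-3p, of the miR-23a cluster, had log2 fold changes of 0.23 and 0.14 and did not pass (edgeR adjusted p = 0.237 and 0.477), though both were called higher with TMM. The miR-23a and miR-23b probes, like miR-27a and miR-27b, are for near-identical miRNAs, and whether signal crosses between such probes was not tested.

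miR-382-5p, one of the hypoxia-linked miRNAs with the lowest counts, showed the opposite pattern. Its scaled counts were 60.6, 53.4 and 68.5 in siAPE1, against 115, 104 and 127 in siSCR, with no overlap. It was above the background limit in no siAPE1 library and in all 3 siSCR libraries, and its log2 fold change was −0.92 ± 0.18 (SE, edgeR adjusted p = 1.71e-06). Like miR-210-3p it passed the filter through the group where it was higher.

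The remaining members were lower or did not pass. miR-424-5p, which stabilizes HIF-α in endothelial cells by repressing a cullin, had a log2 fold change of −0.70. miR-107, which represses the HIF partner ARNT, had −0.66, and miR-26a-5p had −0.44. miR-181a-5p, at −0.33, was just past the threshold (edgeR adjusted p = 0.0935) with overlapping groups. The abundant oncogenic miR-21-5p, at −0.23, and miR-26b-5p, at 0.04, did not pass (edgeR adjusted p = 0.196 and 0.867). With TMM, miR-26b-5p was called higher, and the calls of miR-26a-5p and miR-181a-5p were lost.

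The miRNAs known to act on HIF mRNAs were taken as a second list of 9 probes, of which miR-107 and miR-155-5p are also in the hypoxia-linked list. Of these, 5 were tested, 3 were lower in siAPE1 and none had a positive log2 fold change (edgeR), with a median log2 fold change of −0.57, beside the same background of 50.7%. The 3 were miR-107, already counted among the 8 above, miR-22-3p (−0.64) and miR-18a-5p (−0.57); miR-22-3p and miR-18a-5p are known to repress HIF1A. miR-22-3p had scaled counts of 464, 532 and 632 in siAPE1, against 839, 810 and 881 in siSCR. The probes for miR-106a-5p with miR-17-5p and for miR-20a-5p with miR-20b-5p had log2 fold changes of −0.30 and −0.31 and did not pass (edgeR adjusted p = 0.118 and 0.108). HIF mRNA and protein are not on this panel, so these are values of miRNAs alone. The paper also sequenced RNA after APE1 silencing in A549 and, from targets of its miRNAs, counts the HIF1A pathway among those affected. Those data were not used here.

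Across the 6 libraries, the tested miRNAs whose log2 scaled level most resembled that of miR-210-3p were all ones called higher in siAPE1. They were the probe shared by miR-4454 and miR-7975 (Pearson r = 0.973), miR-503-5p (0.923), miR-450b-5p (0.908), miR-494-3p (0.904) and miR-1246 (0.876). These r are descriptions over 6 libraries that share their groups and scaling factors, and carry no test. miR-1246 had scaled counts of 100.2, 110 and 120 in siAPE1, against 42.5, 49.2 and 76.9 in siSCR, with a log2 fold change of 0.99 ± 0.17 (SE, edgeR adjusted p = 1.89e-07). miR-503-5p and miR-450b-5p are encoded close to miR-424 on the X chromosome, and their log2 fold changes of 0.72 and 0.78 stand beside the −0.70 of miR-424-5p. Within siAPE1 and siSCR the likeness varied among them. miR-210-3p was lowest in siAPE1 replicate 3, the library where miR-1246, miR-503-5p and miR-450b-5p were highest. In contrast, miR-494-3p was likewise lowest there among the siAPE1 libraries. The probe of miR-4454 and miR-7975 was highest in siAPE1 replicate 2 and lowest in siSCR replicate 2, as miR-210-3p was.

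The A549 label was set against markers of other cell types. Probes for blood, mesenchymal or muscle, neuron and liver miRNAs gave none that passed the filter. Their scaled sums ran from 135 to 186 in siAPE1 and from 119 to 135 in siSCR for the 5 blood probes, and from 172 to 199 in siAPE1 and from 147 to 174 in siSCR for the 6 mesenchymal or muscle probes, sums that include the background described above. Of 7 epithelial probes 1 entered the test, that for miR-200b-3p, and its change did not pass. The miR-200b-3p probe was above the background limit in 0 siAPE1 libraries and 3 siSCR libraries, so it entered through siSCR. miR-126-3p, an endothelial marker that epithelial cells of the lung can also hold, was lower in siAPE1 (log2 fold change −0.69). The part of other cells in the miR-210-3p values was not tested.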

How the data were processed

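The files deposited for single libraries hold uncorrected counts of each probe, as their headers and whole-number values show. The authors also deposited a table whose values are a score: its 24 control entries equal the raw counts, and for 126 well-counted miRNA probes each score is a line of the raw count. Slope and offset of that line changed with the position of the probe in the table, with a period of 6 probes (largest residual 0.535), and not with the library. The 6 slopes times the 6 library factors gave 1.0266 to 1.0267, so the values are not scaled between libraries. The table served only as an alternative. There miR-210-3p stood at 38, 41 and 24 in siAPE1 and 16, 16 and 7 in siSCR. The paper's methods name NanoStringDiff, which was not used.

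Library factors were the product of a positive-control and a housekeeping factor, with a geometric mean of 1 (0.958, 0.955 and 0.817 in siAPE1, and 1.13, 1.34 and 0.884 in siSCR). A miRNA was tested if above the negative-control mean plus 2 SD in at least 3 of 6 libraries. This limit ran from 53.1 to 75.8 counts. Counts were tested with edgeR 4.0.16 (robust quasi-likelihood, factors as offsets, two-sided) in R 4.3.3, with Benjamini-Hochberg adjustment over 152 miRNAs and a threshold of 0.1. Exact permutation tests used scipy 1.17.1, and alternatives used DESeq2 1.42.0 and limma 3.58.1. Likeness was Pearson's r on log2(scaled count + 1). Folding used RNAfold 2.7.2. The edgeR fit and the additive background model were also run on simulated counts with known changes. The simulated counts were drawn with the library factors and negative-control means of these data. The simulation therefore cannot show how the fits behave where those are off.

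The text names miR-210-3p and miR-210-5p, tested members of the hypoxia-linked and HIF-targeting lists, the 5 tested miRNAs most like miR-210-3p, and miRNAs sharing its seed. The miRNA, the lists and the tests were chosen with earlier results of these data known.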

Additional observations from a re-analysis of the deposited data

Results flagged for a closer look

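A probe that the comparison does not use gave a signal as high as miR-210-3p. The panel holds 5 spike-in probes for plant and worm miRNAs, and whether such RNAs were added is not given in the sources used here. The probe for osa-miR414, a rice miRNA, lay above the background limit in 4 of the 6 libraries, with raw counts of 116, 71 and 66 in siAPE1, against 53, 53 and 86 in siSCR. It was at or above miR-210-3p in 3 libraries. Its groups overlapped in raw counts, and its log2 ratio of scaled means was 0.59, against 0.91 for miR-210-3p. The probe for osa-miR442, also of rice, lay above the limit in 1 library but was at or above miR-210-3p in all 3 siSCR libraries, with raw counts of 55, 56 and 50 in siAPE1, against 65, 70 and 65 in siSCR. The 4 spike-in probes other than osa-miR414, with osa-miR442 among them, had log2 ratios from −0.05 to 0.34.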

How the results depend on the processing

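miR-210-3p was past the threshold in the same direction under all 19 alternatives that gave a value, with log2 fold changes from 0.51 to 1.38 and adjusted p from 2.26e-07 to 0.0522, the highest being limma on the deposited processed table. Leaving out 1 library at a time gave 0.84 to 0.97. Where all 6 libraries had to be above the limit, miR-210-3p was not tested. Deviations from the group means were not positively correlated between same-numbered libraries (r −0.589, −0.013 and −0.493). Between differently numbered ones r ran from −0.178 to 0.613. Whether the samples were handled in numbered pairs is not given by the labels. With a replicate block the log2 fold change of miR-210-3p was 0.92 (edgeR adjusted p = 0.000261). In that fit 20 miRNAs were called higher, 1 hypoxia-linked miRNA was called higher and 5 HIF-targeting ones were called. The ratio after background subtraction, 2.55, was 1.89 with positive controls only and 2.37 to 2.92 without 1 library.

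The 15 miRNAs called higher became 47 with TMM, 47 with DESeq2 size factors, 32 with the total miRNA count, 6 with positive controls only, 6 with negative controls as scaling, 7 with the deposited table, 78 of 798 with no filter and 40 of 289 with the limit without the highest negative control, and 8 to 20 without 1 library, the 8 without siSCR replicate 1. Hypoxia-linked miRNAs called higher were 3 with TMM, 3 with DESeq2 size factors and 3 with the total miRNA count, and 0 without any 1 library; those called lower stayed between 6 and 10. HIF-targeting miRNAs called, 3 of 5, were 5 with positive controls only, negative controls, the DESeq2 test and the deposited table, and 3 to 5 without 1 library, the 5 without siAPE1 replicate 3. These HIF-targeting alternatives were chosen after seeing the data. Beyond fewer or more probes tested, the causes were not tested.

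Libraries with miR-210-3p above background, 3 in siAPE1 and 1 in siSCR, were 1 and 0 with the mean plus 3 SD, 1 and 0 against the highest negative control, and 3 and 3 without the highest negative control. Background limits the siSCR level: its 42 to 54 counts lay below the highest negative control in every library.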
